A study of Mus musculus with 6 samples.

Results

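The transcripts of 30 genes of meiotic prophase were followed in 6 cultured lines of mouse spermatogonial stem cells, the self-renewing germ cells of the adult testis. The genes were taken by name from a fixed list, and earlier results of these data were known when it was chosen. All 30 were found among the 41053 gene names in the count files. Of the 30, 25 passed the filter on low counts and entered the tests, which covered 15263 genes. The genes that did not pass were Sycp1, Sycp3, Hormad1, Spata22 and Ly6k. The cells came from adult mice and had been electroporated with a plasmid encoding a green fluorescent reporter. For the 3 wild-type lines, WT 1 to WT 3, the plasmid carried no guide RNA, and for the 3 lines labelled Ephb2-KO, KO 1 to KO 3, it carried one against Ephb2. Fluorescent cells were sorted and subcloned in both groups, and each line was sequenced as 1 library of polyadenylated RNA. In each group, lines 1 and 2 were taken at passage 20 and line 3 at passage 18. The comparison of the groups asks how meiotic transcripts differ between lines given the guide and lines without it, and the shared numbers allow a comparison between numbers as well.

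In meiotic prophase, homologous chromosomes are cut by programmed double-strand breaks, paired through strand exchange, and held along their length by the synaptonemal complex before crossovers are made. Spermatogonial stem cells have not entered meiosis, and many of these genes are held silent in them and in somatic cells by DNA methylation and by a Polycomb complex that contains E2F6, MGA and MAX. E2F6 binds a short GC-rich motif, and MGA with MAX binds the palindromic hexamer known as the E-box.

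The promoters of 5 genes are shown because their transcripts were present in some lines and nearly absent in others, as described below. They are RefSeq sequences of the GRCm38.p6 build, written on the strand of the gene from 250 bases before the start, with bases that lie in an annotated exon left out. Capitals mark CACGTG (the E-box) and TCCCGC (the E2F6-type motif) or its reverse complement, which reads GCGGGA.
Sycp1 (chr3:102936101-102936350, minus strand): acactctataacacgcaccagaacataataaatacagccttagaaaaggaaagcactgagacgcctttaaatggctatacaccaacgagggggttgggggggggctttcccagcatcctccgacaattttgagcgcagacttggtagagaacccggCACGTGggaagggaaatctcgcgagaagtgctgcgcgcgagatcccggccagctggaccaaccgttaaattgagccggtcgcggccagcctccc
Sycp3 (chr10:88459337-88459568, plus strand): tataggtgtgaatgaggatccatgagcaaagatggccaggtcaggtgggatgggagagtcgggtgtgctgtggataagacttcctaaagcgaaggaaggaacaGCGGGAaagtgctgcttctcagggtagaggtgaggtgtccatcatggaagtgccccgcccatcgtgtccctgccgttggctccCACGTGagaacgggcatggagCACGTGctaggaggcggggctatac
Hormad1 (chr3:95559427-95559676, plus strand): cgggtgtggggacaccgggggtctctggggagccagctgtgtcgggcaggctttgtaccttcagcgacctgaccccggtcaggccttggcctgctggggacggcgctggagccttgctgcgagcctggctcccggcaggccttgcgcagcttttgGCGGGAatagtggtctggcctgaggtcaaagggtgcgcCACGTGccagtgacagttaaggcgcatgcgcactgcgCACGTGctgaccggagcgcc
Tex12 (chr9:50561326-50561518, minus strand): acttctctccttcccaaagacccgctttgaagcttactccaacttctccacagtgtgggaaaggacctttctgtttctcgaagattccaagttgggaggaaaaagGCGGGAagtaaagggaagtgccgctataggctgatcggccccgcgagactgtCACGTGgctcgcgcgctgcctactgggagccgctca
Piwil1 (chr5:128736030-128736173, plus strand): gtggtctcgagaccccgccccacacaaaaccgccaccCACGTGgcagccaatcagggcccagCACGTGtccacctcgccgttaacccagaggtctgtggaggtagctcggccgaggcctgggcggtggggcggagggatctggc

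CACGTG was present in the promoter window of all 5 of these genes, from 250 bases before to 50 after a RefSeq start. Sycp3, Hormad1 and Piwil1 each held it at 2 positions in the stretch printed, and Sycp1 and Tex12 at 1. TCCCGC was found on either strand in 4 of the 5; in Sycp1 it lay just after the start, outside the stretch printed, and Piwil1 had no match. RefSeq promoters were matched for 26 of the 30 genes, and Spo11, Meiob, Tex15 and Ly6k had none in the table used. Among the other 21 matched genes, 2 held CACGTG (9.52%), namely Stag3 and Syce2, and 10 held TCCCGC (47.6%). Over the 26 genes the shares were 26.9% for CACGTG and 53.8% for TCCCGC, against 8.09% and 22.0% of the 27025 genes in the table. Both motifs were found for 6 of the 26 genes (23.1%) against 2.65% of all genes. The motifs can share 1 base where they abut. The 5 genes were grouped after their levels had been seen, and a match describes letters only.

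**Figure D1:**
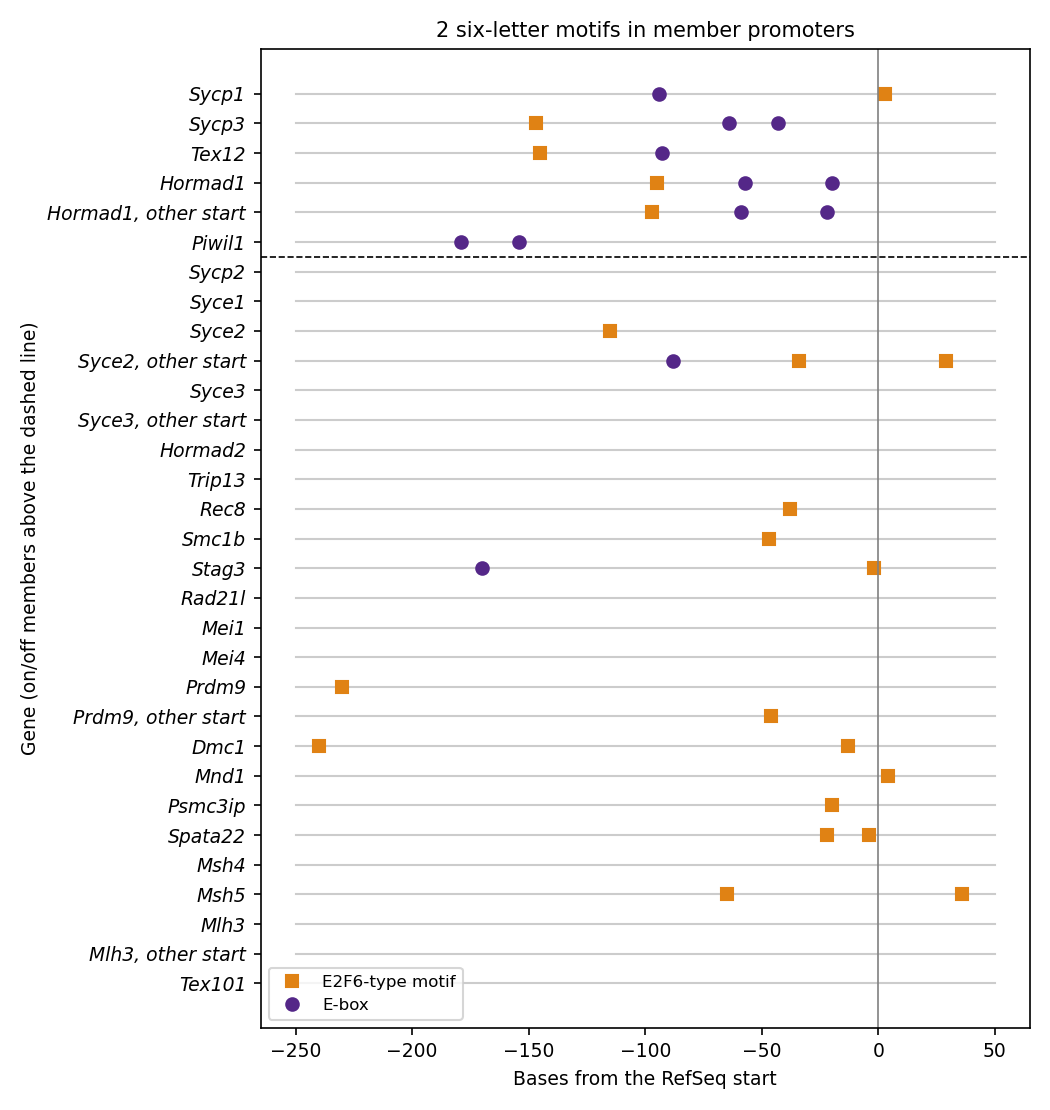
Positions of 2 motifs in the RefSeq promoters of 26 meiotic genes, as bases from the start (horizontal axis, 250 before to 50 after); each row is 1 start of 1 gene, squares mark the E2F6-type motif and circles the E-box. The 5 genes above the dashed line all carry a circle; below it, circles appear in Stag3 and in the other start of Syce2.

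Total counts per library ranged from 21772404 to 34047758, and a count of 3 in a single library corresponded to 0.0803 to 0.147 CPM (the count scaled to library size and composition). Ephb2, the receptor gene targeted by the guide, stood at 21.3, 27.1 and 10.8 CPM in WT 1, 2 and 3 and at 37.1, 16.5 and 13.4 CPM in KO 1, 2 and 3, so its mRNA was not lower in the lines labelled Ephb2-KO. A short indel where the guide cuts would not be visible in exon counts. Libraries with the same number deviated together from their group means, with correlations over genes of 0.596 to 0.850, against at most 0.0790 between different numbers. Markers of undifferentiated spermatogonia were present: Ret, the GDNF co-receptor, lay between 72.9 and 210 CPM, and all 19 genes of that list were tested. Of 17 spermatid genes, Prm1 and Tnp2, which package sperm DNA, had 0 counts in every library, while Odf2 (33.0 to 49.0 CPM) and Crem (9.27 to 17.3 CPM) were read in all 6, and 4 of the 17 were tested. Of 17 Sertoli and Leydig cell genes, 3 had 0 counts in every library (the receptors Fshr and Lhcgr and the enzyme gene Hsd3b1) and 8 were tested. Sox9 (16.5 to 41.8 CPM), Wt1 (16.1 to 37.3 CPM) and Gata4 (9.08 to 19.3 CPM), transcription factor genes of that list, were read in all 6. Fibroblast and stromal markers differed by line: their summed level over 20 genes was 4068 to 7979 CPM in the 4 passage 20 libraries and 21164 and 25835 CPM in WT 3 and KO 3. Both number 3 libraries thus stood apart from the rest.

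Meiotic transcripts were present at very different levels. At least 1 read was counted in all 6 libraries for 23 of the 30 genes, and the 30 together took 0.0547% to 0.125% of the counts of a library. Per kilobase of exon, Tex101, which encodes a germ cell surface glycoprotein, was highest with a mean of 201 CPM per kilobase (range 135 to 248 over the 6 libraries). Rec8 (47.2 CPM per kilobase), Syce2 (33.3), Trip13 (28.8), Syce3 (26.6) and Syce1 (24.0) followed. The ranges of Rec8 (27.4 to 69.7), Syce2 (26.1 to 40.1) and Trip13 (18.0 to 36.8) overlapped, so these neighbours in the order are not separated by their spread, while the lowest library of Tex101 lay above the highest of Rec8. Genes of break formation were near the bottom: Spo11 averaged 0.275, Mei1 0.278 and Prdm9 0.377 CPM per kilobase. Ly6k, which encodes a surface protein bound by TEX101, had 0 counts in all 6 libraries, below the 3-count floor given above. Spata22, a partner of MEIOB on single-stranded DNA, had 10, 3 and 1 counts in WT 1, 2 and 3 and 0, 0 and 1 in KO 1, 2 and 3, and 27.9% of its exon length is shared with Olfr20 on the same strand, so its counts are uncertain.

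**Figure D2:**
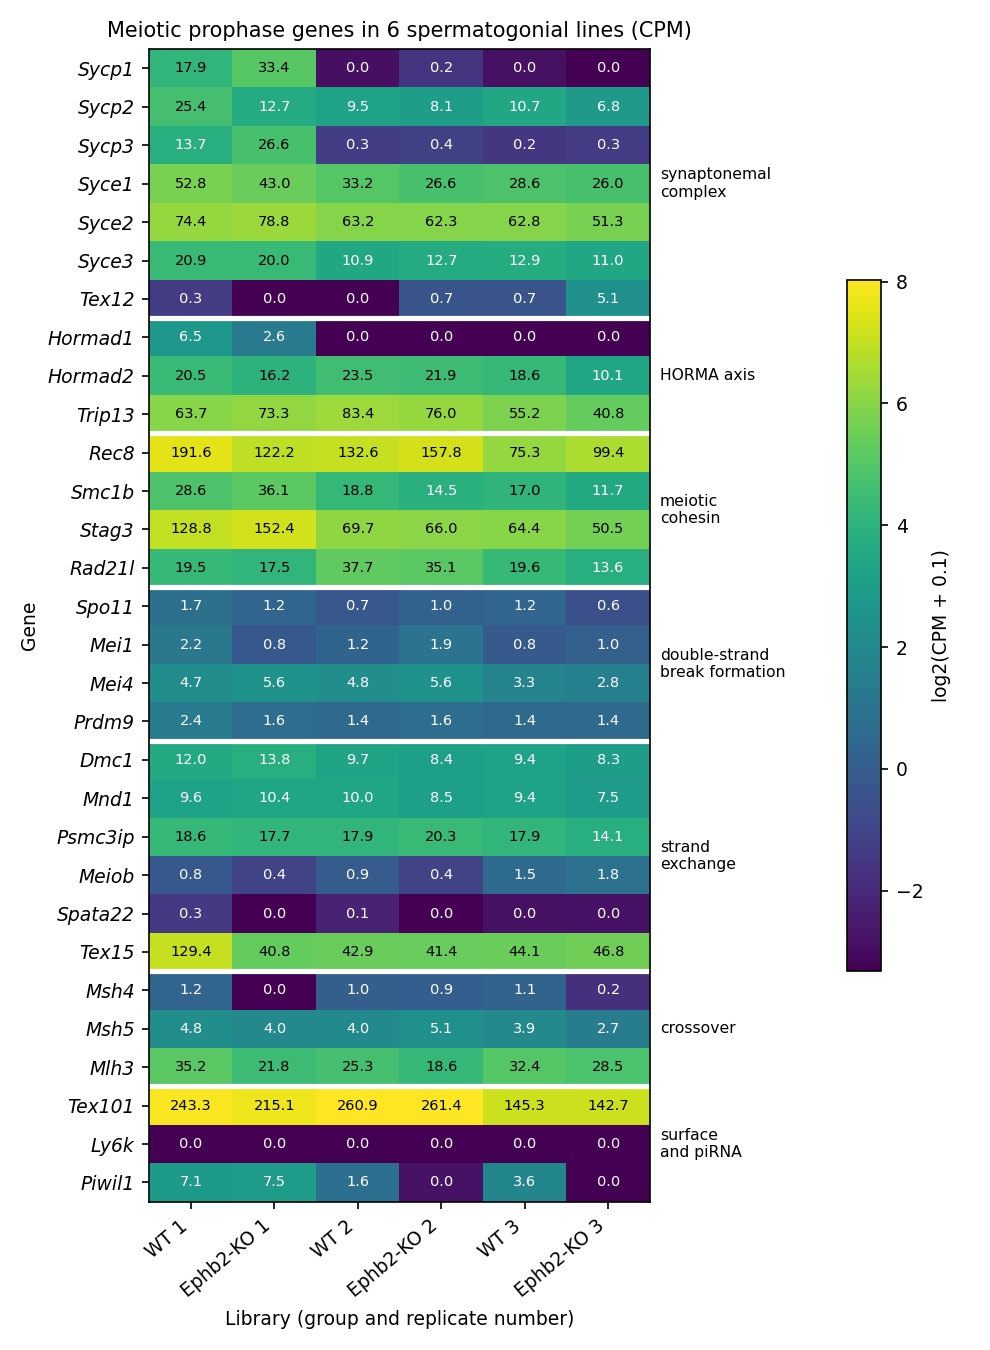
Level of the 30 genes in each library, with CPM printed in each cell and colour showing log2(CPM + 0.1); columns pair the WT and Ephb2-KO lines of each number, and white lines separate the roles. Sycp1, Sycp3 and Hormad1 are bright in the first pair of columns and dark in the other 4 libraries, while Syce2, Trip13 and Tex101 are bright throughout.

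Sycp1, Sycp3 and Hormad1 were present in both number 1 lines and close to absent in the other 4, whatever the label. Sycp1 encodes the transverse filament of the synaptonemal complex. It had 668, 1 and 1 counts in WT 1, 2 and 3 and 1186, 5 and 0 counts in KO 1, 2 and 3, or 17.9, 0.0392 and 0.0413 CPM against 33.4, 0.225 and 0 CPM. Pooled over libraries, Sycp1 was 336-fold higher in the number 1 lines, 25.5 against 0.0758 CPM. Sycp3, a lateral element protein of the same complex, had 510, 8 and 6 counts in WT 1, 2 and 3 and 942, 8 and 6 in KO 1, 2 and 3. These were 13.7, 0.313 and 0.248 CPM and 26.6, 0.360 and 0.295 CPM, and the pooled level was 65.8-fold higher in the number 1 lines. In contrast to Sycp1, a low level of Sycp3 was read in all 4 other libraries, above the 3-count floor in each.

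Hormad1, a protein of unsynapsed chromosome axes, had 243 counts in WT 1, 91 in KO 1 and 0 in each of the other 4 libraries, which was 6.51 and 2.56 CPM and at least 141-fold higher in the pooled number 1 lines against a floor of 3 counts over the 4 libraries. Within the number 1 pair the genes did not share an order: Sycp1 and Sycp3 were higher in KO 1 by log2 differences of 0.90 and 0.96, and Hormad1 was higher in WT 1, with a difference of -1.32. The filter on low counts removed these 3 genes because 2 libraries hold nearly all their reads. Their differences between groups therefore rest almost wholly on WT 1 and KO 1, and the SE is not a spread over 3 pairs. The difference between groups, with the number as a block, was 1.01 (SE 0.34) for Sycp1, 0.75 (SE 0.32) for Sycp3 and -1.25 (SE 0.61) for Hormad1 in a fit with no filter over 24749 genes, with edgeR adjusted p of 0.467, 0.735 and 0.864.

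Piwil1 and Tex12 were also present in some lines and absent in others. Piwil1 was highest in both number 1 lines. Tex12 did not separate by number in this way, since its 17 counts in WT 3 lay near the 15 in KO 2. Lines of the same number also differed from each other. Piwil1 was near or at 0 in KO 2 and KO 3 alone, and Tex12 was at 0 in WT 2 and KO 1 alone. Piwil1 encodes MIWI, a Piwi protein of later meiotic and haploid germ cells. It stood at 7.12, 1.65 and 3.59 CPM in WT 1, 2 and 3 and at 7.53, 0.0450 and 0 CPM in KO 1, 2 and 3, from 266, 42 and 87 counts against 267, 1 and 0. KO 2 and KO 3 were at or below the 3-count floor while KO 1 was as high as WT 1, so the groups overlapped. Tex12, a central element protein of the synaptonemal complex, was at 0.295, 0 and 0.701 CPM in WT 1, 2 and 3 and at 0, 0.675 and 5.11 CPM in KO 1, 2 and 3, from 11, 0 and 17 counts against 0, 15 and 104. It was highest in KO 3.

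**Figure D3:**
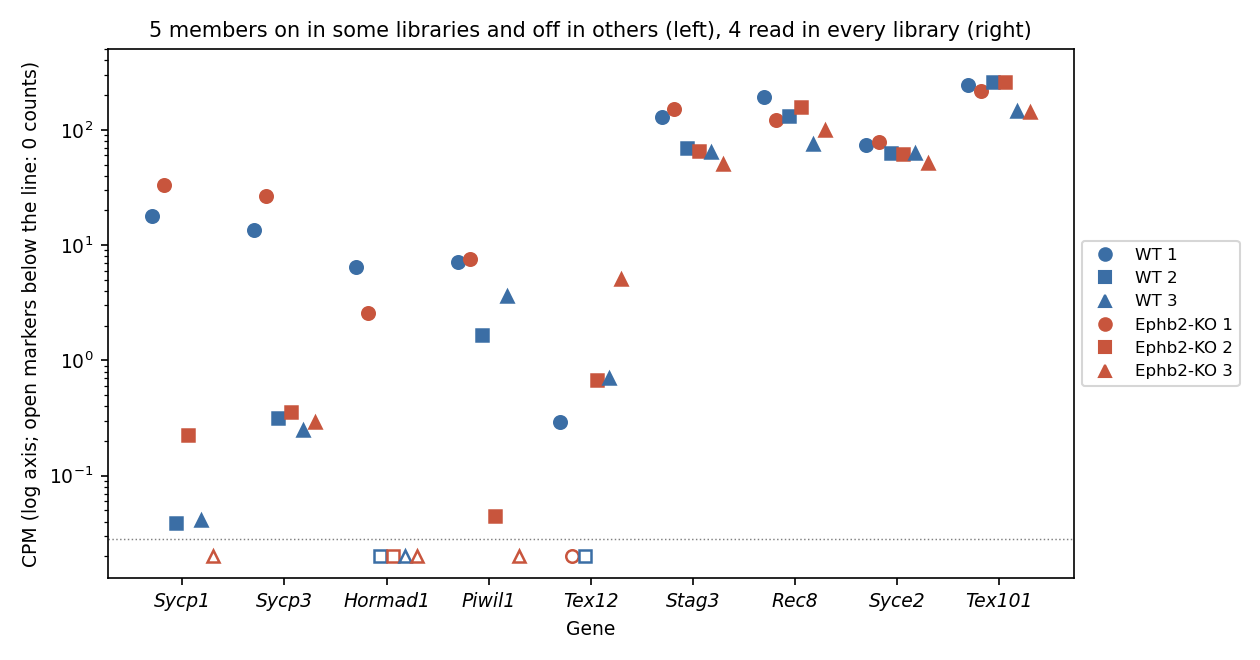
Level of 9 genes in each library (vertical log axis, CPM); blue marks WT, red Ephb2-KO, the shape gives the number, and open markers under the dotted line stand for 0 counts. Circles of Sycp1, Sycp3 and Hormad1 lie far above the other shapes, red squares and triangles of Piwil1 lie lowest for that gene, and Stag3, Rec8, Syce2 and Tex101 are at 50.5 CPM or higher in every library.

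Between the groups, no meiotic gene changed past the threshold. Of the 25 tested, 0 passed an adjusted p of 0.05 in edgeR's quasi-likelihood test, where 0% of all 15263 genes passed. Under an unadjusted p of 0.05 there were 0, where 0.21% of all genes were. In the simulated counts described below, this test without a block recovered 0% of 2-fold and 4-fold changes. Its lack of calls therefore does not show that levels were alike. The log2 difference, Ephb2-KO minus WT, was below 0 for 22 of the 25 genes with a median of -0.13, against 7180 of 15263 genes below 0 and a median of 0.01 overall. Fibroblast and stromal markers lay the other way: 17 of 20 were above 0 with a median of 0.25, or 0.37 under the block. Of the 20, 12 were higher in the Ephb2-KO line of every pair, against 15.6% of all genes. Their summed level was higher there in each pair (6427 against 4068, 7979 against 6467 and 25835 against 21164 CPM). None of the 20 passed between groups, and their part in the meiotic values was not tested. Of 19 undifferentiated spermatogonial genes, 10 were above 0 and 9 below, with a median of 0.01. In bulk libraries, fewer cells of a type and less RNA per cell cannot be told apart. With the number as a block, 4 of all genes passed (0.0262%) and again none of the 25 did, with a smallest edgeR adjusted p of 0.741 among them. In that fit 23 were below 0 with a median of -0.16.

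The smallest p-values belonged to genes that were lower in the lines labelled Ephb2-KO. Under the block, 3 of the 25 were under an unadjusted p of 0.05, against 6.47% of all genes, and all 3 were lower, against 2.09%: Sycp2, Mlh3 and Hormad2. In every pair of same-numbered lines, 6 genes were lower in the Ephb2-KO line (Sycp2, Syce1, Hormad2, Rad21l, Msh4 and Mlh3), against 12.3% of all genes, and 0 were higher in every pair, against 15.6%. Msh4 alone had ranges that did not overlap between groups, where 1.55% of all genes did so with the Ephb2-KO lines lower. Counts simulated with the spread fitted to these libraries were also tested, with 100 genes changed 2-fold and 100 changed 4-fold. Under the block 80% and 96% of these were recovered, with 18 false calls among 194, and 0% of either without it. The changed genes all had a mean above 1 CPM and reads in every number. The shares therefore do not cover lower genes such as Msh4, and recovery with fewer changed genes was not simulated.

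**Figure D4:**
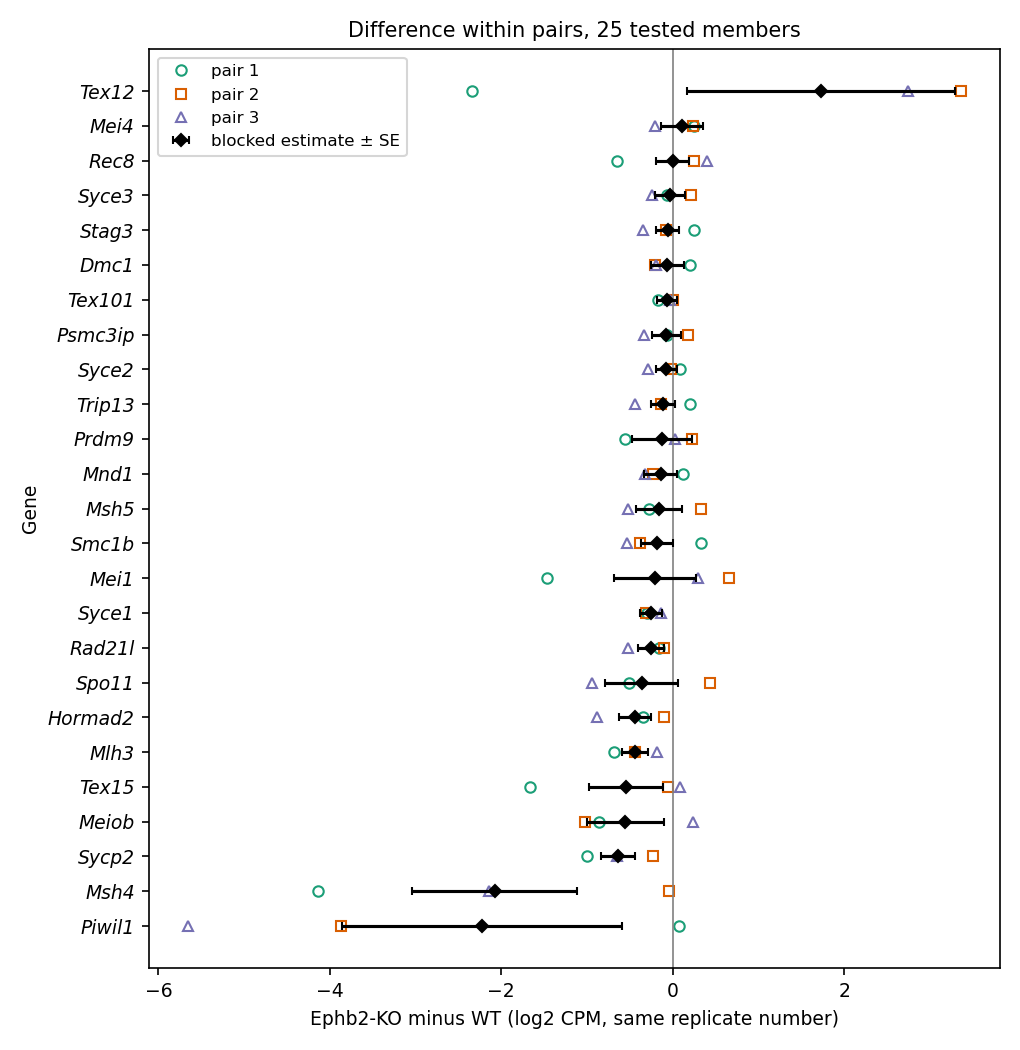
Difference in log2 CPM between the Ephb2-KO and WT line of each number (open shapes) and the blocked edgeR estimate ± SE (black diamonds) for the 25 tested genes, in order of the estimate. Most estimates lie just left of 0 and none passed the threshold; the shapes of Piwil1, Msh4 and Tex12 are the most spread.

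Without the number 1 pair, 2 of the 25 genes passed, Piwil1 and Tex12, where 0.367% of 15255 genes passed. In this blocked fit of 4 libraries Piwil1 was lower in the Ephb2-KO lines by a log2 value of -6.45 (SE 0.80, edgeR adjusted p = 1.56e-12) and Tex12 was higher by 3.18 (SE 0.54, edgeR adjusted p = 2.68e-06). For both genes the number 1 pair went the other way or not at all, with log2 differences of 0.08 for Piwil1 and -2.34 for Tex12. Over all 3 pairs the blocked difference was -2.22 (SE 1.63) for Piwil1 and 1.73 (SE 1.56) for Tex12, and neither passed. Each line is a subclone read once, so differences between the groups in these 2 pairs and differences between single lines cannot be told apart.

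Between the numbers, 10 of the 25 meiotic genes passed the test of the numbers together (edgeR, adjusted p under 0.05). This was a smaller share than the 54.2% of all genes that passed. The 25 leave out Sycp1, Sycp3 and Hormad1, which the filter removed. In a fit with no filter, 14 of 29 meiotic genes passed, these 3 among them, against 36% of all 24749 genes. Both number 1 lines lay above the other 4 for 8 of the 25, against 14.4% of all tested genes. The untested Sycp1, Sycp3 and Hormad1 had the same order, but no share over untested genes stands beside them. For number 2 against number 1, both at passage 20, 6 passed, against 16.5% of all genes: 5 were lower (Sycp2, Syce1, Syce3, Smc1b and Stag3) and 1 was higher (Rad21l), against 8.35% and 8.14% of all genes. At passage 18, 11 passed, against 48% of all genes: 10 were lower than the mean of passage 20 (Sycp2, Syce1, Hormad2, Trip13, Rec8, Smc1b, Stag3, Rad21l, Mei4 and Tex101), against 23% of all genes, and Meiob was higher, against 25%. The median log2 difference at passage 18 was -0.45 for the 25 genes and -0.03 for all genes.

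Other cell markers moved with passage. Of 20 fibroblast and stromal genes, none at 0 in every library, 17 were higher at passage 18 and 1 was lower, with a median of 2.17, and Dcn, a matrix proteoglycan, was at 2344 and 2348 CPM in WT 3 and KO 3 against 213 to 295 CPM in the other 4. Of 19 undifferentiated spermatogonial genes, 15 were lower, with a median of -0.83. Late spermatocyte genes, 16 in the files, summed to 1141, 1503 and 1137 CPM in WT 1, 2 and 3 and to 1352, 1509 and 1138 CPM in KO 1, 2 and 3. Calm2 (508 to 623 CPM) and Piwil2 (244 to 570 CPM) made up most of these sums, so the sums mainly follow them. Other genes of the list had different orders: Hspa2 and Clgn were highest in KO 1, Ldhc (0.540 to 2.49 CPM) in WT 1 and Ybx3 in KO 3. Of the 16 genes, 13 were tested. Adam3 had 0 counts in every library, and Pgk2 had 0 to 6 counts per library. The part of these markers in the meiotic differences was not tested, and passage, number and line of origin cannot be told apart. Compared with number 2 alone, in a contrast added after the values were seen, 5 genes passed (45.4% of all genes did), with number 3 lower for all 5 (Hormad2, Trip13, Rec8, Rad21l and Tex101; 20.9% of all genes) and higher for 0 (24.5%). In leave-one-out fits the counts of meiotic genes moved, and so did the counts of all genes, whose ranges are given at the end. Whether the meiotic counts moved more than those of all genes was not tested. The passage count was 7 without WT 3 and 4 without KO 3, the count over the numbers was 18 without WT 1 and 17 without KO 1, and the count for number 2 against 1 was 10 without WT 1.

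**Figure D5:**
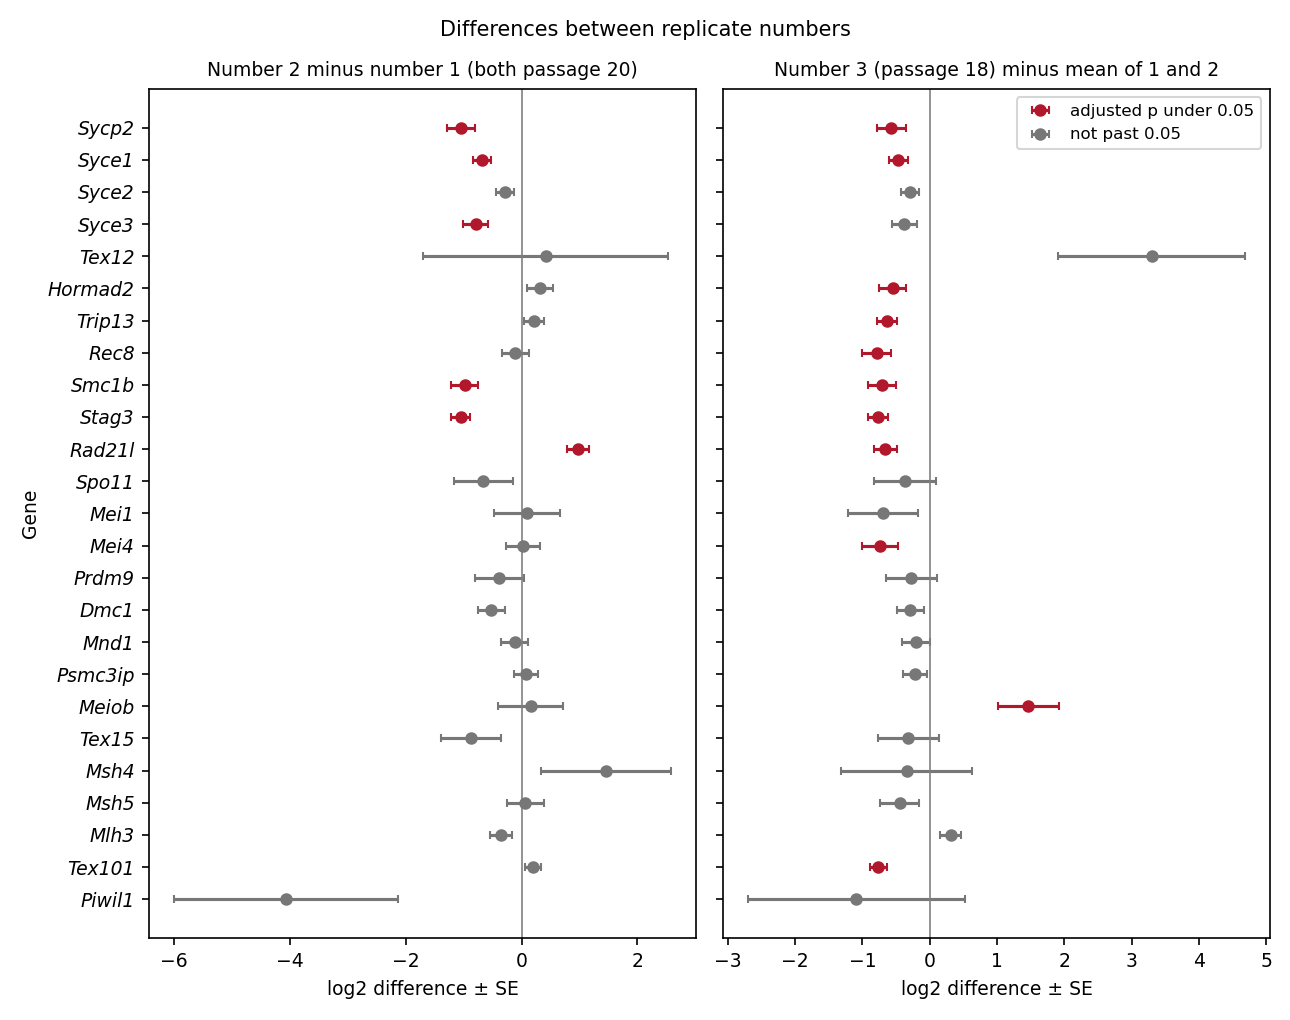
Log2 difference ± SE of the 25 tested genes between number 2 and number 1 (left) and between passage 18 and the mean of passage 20 (right), red where the edgeR adjusted p was under 0.05. In the left panel Stag3, Sycp2 and Smc1b lie near -1 and Rad21l near 1; in the right panel all red points but Meiob lie left of 0.

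Among synaptonemal complex genes, the lateral element gene Sycp2 stood at 25.4, 9.48 and 10.7 CPM in WT 1, 2 and 3 and at 12.7, 8.06 and 6.78 CPM in KO 1, 2 and 3. WT 1 was the highest, and within each group line 1 lay above lines 2 and 3. The log2 difference of number 2 from number 1 was -1.04 (SE 0.24, edgeR adjusted p = 0.0160). Between groups the blocked difference was -0.64 (SE 0.20, unadjusted p = 0.00808, edgeR adjusted p = 0.741), with a 95% interval of 0.474 to 0.868 for the fold. Sycp2 differed from Sycp1 and Sycp3 in being read at several CPM in all 6 lines.

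Syce1, a central element gene, was at 52.8, 33.2 and 28.6 CPM in WT 1, 2 and 3 and at 43.0, 26.6 and 26.0 CPM in KO 1, 2 and 3. Line 1 was again highest in each group, and number 2 differed from number 1 by -0.68 (SE 0.16, edgeR adjusted p = 0.0159). Syce3, another central element gene, was at 20.9, 10.9 and 12.9 CPM in WT 1, 2 and 3 and at 20.0, 12.7 and 11 CPM in KO 1, 2 and 3. Its fall from number 1 to 2 was -0.80 (SE 0.21, edgeR adjusted p = 0.028), and the group means were 14.9 ± 5.29 CPM in WT and 14.5 ± 4.82 CPM in Ephb2-KO (SD, n = 3). Syce2, which forms the central element fibres with TEX12, was at 74.4, 63.2 and 62.8 CPM in WT 1, 2 and 3 and at 78.8, 62.3 and 51.3 CPM in KO 1, 2 and 3, and it passed no test. Its fold between groups had a 95% interval of 0.785 to 1.15 under the block, while Tex12 ranged from 0 to 5.11 CPM over the same lines.

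In the axis group, Hormad2, the second meiotic HORMA-domain gene, was at 20.5, 23.5 and 18.6 CPM in WT 1, 2 and 3 and at 16.2, 21.9 and 10.1 CPM in KO 1, 2 and 3. It was read in every line, unlike Hormad1. KO 3 was lowest, and passage 18 differed from passage 20 by -0.55 (SE 0.20, edgeR adjusted p = 0.0421). The blocked difference between groups was -0.44 (SE 0.18, unadjusted p = 0.0371, edgeR adjusted p = 0.741). Trip13, the ATPase that removes HORMA proteins from axes, was at 63.7, 83.4 and 55.2 CPM in WT 1, 2 and 3 and at 73.3, 76.0 and 40.8 CPM in KO 1, 2 and 3. Both number 3 lines were below the other 4, and the passage difference was -0.63 (SE 0.15, edgeR adjusted p = 0.00584).

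All 4 genes of the meiotic cohesin complex, which holds sister chromatids along the axis, passed the test of the numbers together and were lower at passage 18, where 54.2% and 23% of all genes did so. Stag3, its meiosis-specific HEAT-repeat subunit, was at 129, 69.7 and 64.4 CPM in WT 1, 2 and 3 and at 152, 66.0 and 50.5 CPM in KO 1, 2 and 3. Both number 1 lines stood above the rest, and number 2 differed from number 1 by -1.05 (SE 0.16, edgeR adjusted p = 0.00246). Smc1b, the meiotic SMC1 subunit, was at 28.6, 18.8 and 17.0 CPM in WT 1, 2 and 3 and at 36.1, 14.5 and 11.7 CPM in KO 1, 2 and 3, with the same order of numbers and a difference of -0.98 (SE 0.23, edgeR adjusted p = 0.0176).

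The 2 kleisin subunits, which close the cohesin ring, had other patterns. Rad21l was highest in the number 2 lines, at 19.5, 37.7 and 19.6 CPM in WT 1, 2 and 3 and 17.5, 35.1 and 13.6 CPM in KO 1, 2 and 3. It was higher in number 2 than in number 1 by 0.98 (SE 0.19, edgeR adjusted p = 0.00723), opposite in sign to Stag3 and Smc1b. Rec8 was at 192, 133 and 75.3 CPM in WT 1, 2 and 3 and at 122, 158 and 99.4 CPM in KO 1, 2 and 3. WT 3 and KO 3 were lowest, with a passage difference of -0.79 (SE 0.21, edgeR adjusted p = 0.0142), and its fold between groups under the block had a 95% interval of 0.734 to 1.36.

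Genes of double-strand break formation were read at low levels in every line. Mei4, an accessory protein of the SPO11 machinery, was at 4.66, 4.78 and 3.30 CPM in WT 1, 2 and 3 and at 5.55, 5.63 and 2.85 CPM in KO 1, 2 and 3. The number 3 lines were lowest, and Mei4 was the gene of this group that passed a test, with a passage difference of -0.73 (SE 0.27, edgeR adjusted p = 0.0434). Prdm9, the histone methyltransferase that places breaks, ran from 1.37 to 2.36 CPM, and its groups overlapped. Spo11, which makes the break, was at 1.71, 0.745 and 1.2 CPM in WT 1, 2 and 3 and at 1.18, 1.04 and 0.589 CPM in KO 1, 2 and 3. Its counts were 12 to 64 per library, and the 95% interval of its fold between groups, 0.407 to 1.49, holds a 2-fold fall. Mei1, needed for break formation, ran from 0.761 to 2.22 CPM.

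Strand exchange genes included the steadiest of the list. Psmc3ip and Mnd1 encode the HOP2-MND1 complex that helps the DMC1 recombinase, and they ran from 14.1 to 20.3 CPM and from 7.47 to 10.4 CPM, with coefficients of variation over the 6 lines of 11.4% and 11.6%, the lowest among the 29 genes with reads. Dmc1 itself ran from 8.25 to 13.8 CPM and was highest in the number 1 lines. None of these 3 passed a test between groups or numbers.

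Tex15, needed for recombination and for silencing transposons in germ cells, was at 129, 42.9 and 44.1 CPM in WT 1, 2 and 3 and at 40.8, 41.4 and 46.8 CPM in KO 1, 2 and 3. WT 1 alone was high, 3.17-fold above the lowest line, and the blocked difference between groups was -0.54 (SE 0.43, edgeR adjusted p = 0.821); without the number 1 pair it was 0.02 (SE 0.16). Meiob, a single-stranded DNA binding protein, was at 0.777, 0.901 and 1.49 CPM in WT 1, 2 and 3 and at 0.395, 0.405 and 1.77 CPM in KO 1, 2 and 3. Both number 3 lines were the highest, and Meiob was the single gene of the 25 that passed as higher at passage 18, by 1.47 (SE 0.45, edgeR adjusted p = 0.0203), a call lost with DESeq2 and without KO 2 or KO 3.

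In the crossover group, Mlh3, the mismatch repair subunit that acts at crossovers, was at 35.2, 25.3 and 32.4 CPM in WT 1, 2 and 3 and at 21.8, 18.6 and 28.5 CPM in KO 1, 2 and 3. It was lower in the Ephb2-KO line of every pair, although KO 3 lay above WT 2, and the blocked difference was -0.44 (SE 0.15, unadjusted p = 0.0139, edgeR adjusted p = 0.741). Msh4, which with MSH5 stabilises crossover intermediates, was named after its values were seen. It was at 1.21, 0.980 and 1.11 CPM in WT 1, 2 and 3 and at 0, 0.945 and 0.196 CPM in KO 1, 2 and 3, from 45, 25 and 27 counts against 0, 21 and 4. The groups did not overlap, but KO 2 and WT 2 nearly touched, and the blocked difference was -2.08 (SE 0.96, edgeR adjusted p = 0.741). Msh5 ran from 2.70 to 5.09 CPM with overlapping groups.

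Tex101 was at 243, 261 and 145 CPM in WT 1, 2 and 3 and at 215, 261 and 143 CPM in KO 1, 2 and 3, or 217 ± 62.3 and 206 ± 59.8 CPM (SD, n = 3). The lines of a pair lay close together, and both number 3 lines were far below the rest. The passage difference was -0.76 (SE 0.12, edgeR adjusted p = 0.000488), the one passage call among the 25 genes that held in every alternative run. Between groups its fold had a 95% interval of 0.804 to 1.13 under the block. Among the 6 calls for number 2 against 1, only that of Stag3 held in every alternative run.

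Other genes of meiotic recombination and pairing, from a separate list, were lower at passage 18 where they passed. Of 26 tested, 0 passed between groups, 10 passed over the numbers (54.2% of all genes did), and 9 were lower and 0 higher at passage 18 (23% and 25% of all genes), with a median of -0.42. Tex11, an X-linked crossover gene, was at 170, 197 and 105 CPM in WT 1, 2 and 3 and at 162, 181 and 99.0 CPM in KO 1, 2 and 3. Both number 3 lines were lowest, and at passage 18 it fell by 0.80 on the log2 scale (edgeR adjusted p = 0.000322). Between groups under the block, the smallest p in this list belonged to Fkbp6, a cochaperone of the piRNA pathway, at 1.74 (SE 0.49, unadjusted p = 0.00459, edgeR adjusted p = 0.741), and to Gm960, whose protein product acts in break formation, at -0.62 (SE 0.19, unadjusted p = 0.00714, edgeR adjusted p = 0.741).

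Genes of meiotic entry had more than 1 order over the lines. Stra8, the retinoic acid target needed for entry, was at 11.8, 4.11 and 12.5 CPM in WT 1, 2 and 3 and at 28.1, 4.77 and 16.1 CPM in KO 1, 2 and 3. It was lowest in the number 2 lines, with a difference of -2.06 from number 1 (SE 0.28, edgeR adjusted p = 0.00136), and it was well read in number 3 lines where Sycp1 and Hormad1 were near or at 0. Dmrtb1, a spermatogonial transcription factor, was also lowest in the number 2 lines, at 10.2, 3.10 and 5.45 CPM in WT 1, 2 and 3 and at 18.6, 3.29 and 10.5 CPM in KO 1, 2 and 3. Rarg, the retinoic acid receptor of spermatogonia, was likewise lowest in number 2, by -1.16 (SE 0.16, edgeR adjusted p = 0.00131). Other genes of the list, picked after their values were seen, had both number 1 lines above the other 4: Ddx4, a germ cell RNA helicase, was at 191 and 290 CPM in WT 1 and KO 1 and at 83.7 to 118 CPM elsewhere, and Dmrt1, a regulator of meiotic entry, was at 741 and 655 CPM against 424 to 558 CPM. Of 15 tested genes in this list, 12 passed over the numbers (54.2% of all genes did) and 0 between groups.

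Genes for the repressors of meiotic transcription were read in every line. Their list also held Tet1, a DNA demethylase gene, which was low (0.165 to 0.990 CPM) and passed none of the tests below. Of 20 tested, 0 passed between groups, 12 passed over the numbers (54.2% of all genes did), and 11 were lower and 3 higher at passage 18 (23% and 25% of all genes). Pcgf6, a subunit of the Polycomb complex named above, was at 44.5, 25 and 33.3 CPM in WT 1, 2 and 3 and at 32.5, 24.6 and 24.8 CPM in KO 1, 2 and 3. It was highest in WT 1 and lowest in the number 2 lines and KO 3, and number 2 differed from number 1 by -0.61 (SE 0.18, edgeR adjusted p = 0.0370). Dnmt1, the maintenance DNA methyltransferase, was at 216, 335 and 129 CPM in WT 1, 2 and 3 and at 303, 273 and 152 CPM in KO 1, 2 and 3, and its partner Uhrf1 was higher in number 2 than in number 1 by 0.49 (SE 0.15, edgeR adjusted p = 0.0464). Both were lower at passage 18, Dnmt1 by a log2 value of -1.01 and Uhrf1 by -0.95 (edgeR adjusted p = 0.000540 and 0.000222). Cbx3, which encodes HP1 gamma, ran from 44.2 to 62.8 CPM and passed no test.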

How the data were processed

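Polyadenylated RNA of 6 lines was sequenced from strand-keeping libraries, per the labels' protocols. The authors deposited a raw count of reads for each gene name. Counting was done with featureCounts 1.4.6-p4 on exons of the GENCODE vM3 annotation at strand setting 2, per the file headers, on reads and not fragments, leaving out multi-mapping reads and reads in overlapping genes. STAR, FastQC and GRCm38.p3 are named in the submitters' processing notes.

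Here, genes were kept by filterByExpr (15263 tested), scaled by TMM and tested with edgeR 4.0.16 (robust quasi-likelihood, R 4.3.3), adjusted by Benjamini-Hochberg over all tested genes at 0.05. The main comparison of groups had no covariate; replicate numbers, passage and number 2 against 1 were tested in the fit of group and number. SE is the log2 difference divided by the square root of F; log2 CPM used a prior count of 2. DESeq2 1.42.0, RLE scaling, no filter, a filter of 1 CPM in 3 libraries, leave-one-out and the replicate block were alternatives. Same-numbered libraries correlated at 0.596, 0.736 and 0.850, and at most at 0.0790 with another number, so the numbers, taken from the titles, were taken to pair the libraries; the biological coefficient of variation was 0.440 without and 0.166 with the block. Whether same-numbered lines share a parent culture is not given in the sources used here. Without the block, p-values measure the spread between lines of a group. In the fits of group and number they measure the spread left once the number is taken out. In both, the spread of a gene is estimated with help from other genes, which weighs most in fits of 4 libraries. Floors cover counting error only. No libraries were duplicates.

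The genes and lists were chosen with earlier results of these data known. Values in every library are given for members past a threshold in any test. They are also given for the 2 highest and the smallest blocked p in each role. Members of at most 3 counts are given as counts. Sycp1, Sycp3, Hormad1, Piwil1, Tex12, Msh4, Spata22, Ddx4, Dmrt1, Calm2, Hspa2, Clgn, Adam3 and Pgk2 were picked or shown further after their values were seen. The first 5 were grouped as having a library of at most 10 counts and another of at least 100. From other lists, up to 2 genes with the smallest p in the blocked and number tests are named, and Tet1 is named outside this rule. One gene that this rule picks is not reported here. Scripts were tested on simulated counts. Figures were drawn with matplotlib 3.10.9.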

Additional observations from a re-analysis of the deposited data

How the results depend on the processing

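Between groups, 0 genes passed without a block, and 4 with the replicate block or with DESeq2; leaving out libraries or pairs gave 0 to 56 genes and 0 to 2 meiotic genes, the highest in both cases without the number 1 pair. The replicate block changed no other call of a meiotic gene. For the replicate numbers, leave-one-out fits gave 4442 to 10084 genes and 10 to 18 meiotic genes, with the lowest gene counts without WT 3 (4442) and KO 3 (4717). For passage they gave 3376 to 8719 genes and 4 to 15 meiotic genes, again lowest for genes without WT 3 (3376) and KO 3 (3792). For number 2 against 1 they gave 1401 to 3555 genes and 5 to 10 meiotic genes; the count of genes was 1401 without WT 2, 1511 without KO 2, 1648 without WT 3 and 1674 without KO 3.

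The sign of the group difference turned for Stag3 under the replicate block (log2 value of -0.058, from 0.03). When single libraries were left out it turned for 17 genes, whose values ranged as follows: Syce1 (-0.54 to 0.044), Syce2 (-0.24 to 0.080), Syce3 (-0.34 to 0.29), Tex12 (-0.046 to 3.57), Trip13 (-0.24 to 0.15), Rec8 (-0.36 to 0.28), Smc1b (-0.72 to 0.23), Stag3 (-0.59 to 0.42), Rad21l (-0.72 to 0.18), Mei1 (-0.66 to 0.29), Mei4 (-0.012 to 0.40), Prdm9 (-0.29 to 0.15), Dmc1 (-0.32 to 0.098), Psmc3ip (-0.19 to 0.068), Meiob (-1.39 to 0.041), Msh5 (-0.35 to 0.085) and Tex101 (-0.29 to 0.14). In blocked fits of 4 libraries, the differences that turned were as follows. Without the number 1 pair they were 0.32 for Rec8, -0.21 for Stag3, 0.52 for Mei1, 0.13 for Prdm9 and 0.016 for Tex15. Without the number 2 pair they were -0.046 for Stag3 and 0.011 for Dmc1. Without the number 3 pair they were 0.033 for Syce2, 0.075 for Syce3, 0.036 for Trip13, 0.0031 for Dmc1, 0.056 for Psmc3ip and 0.019 for Msh5. Of the differences that turned sign, none passed a threshold in the setting where it turned.

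Calls kept their direction but were lost in 27 combinations of gene and alternative for passage, 10 for number 2 against 1 and 11 for the numbers together. The other scalings moved the median of all genes by under 0.1 on the log2 scale. Low counts limit the precision for Spo11, Mei1, Prdm9, Msh4 and Spata22. The causes of these changes were not tested.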
